A study of Rattus norvegicus with 6 samples.

Results

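The contactins, neurexins, neuroligins and related neural cell adhesion molecules are membrane proteins by which neurons and glia recognise each other, and their transcripts were examined in cultured rat OPCs (oligodendrocyte precursor cells), from which myelinating oligodendrocytes form. The genes were chosen by name alone: contactins (Cntn followed by a digit), contactin-associated proteins (Cntnap), neurexins (Nrxn), neuroligins (Nlgn), Lrrtm, Slitrk and Cadm genes, and Ncam1, Ncam2, L1cam, Nfasc, Nrcam and Chl1. This rule found 34 of the 32883 genes in the deposited table. Of these, 33 passed the filter on low counts and were tested among 14670 genes. OPCs were prepared from cortices of 2 newborn (postnatal day 0) Sprague Dawley rats, purified by shaking after mixed glial culture in serum, and kept in a serum-free medium. The ZJU-37 group received 5 µM of ZJU-37, an inhibitor of the kinase RIPK1, for 36 h according to the labels (the methods give a shorter time), and the DMSO group received the same volume of solvent. Each group had 3 libraries of poly-A RNA, which the methods call biological repeats and a figure legend of the paper calls plate wells. The labels do not say that the libraries came from separate animals, so that p-values measure the spread between these libraries only.

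In the nervous system, presynaptic neurexins bind across the cleft to neuroligins, Lrrtm proteins and secreted cerebellins, and Slitrk and Cadm proteins form other contacts of this kind. Where a myelin loop attaches to the axon beside the node of Ranvier, contactin 1 lies on the axon and the glial isoform of neurofascin on the loop. In the oligodendrocyte lineage, Ncam1 is carried by precursor cells and can be modified with polysialic acid. Many of these genes are best known from neurons, and glial cells express a number of them as well.

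Levels are given as CPM, the counts of a gene relative to the total of its library, with totals scaled by TMM (trimmed mean of M-values). The 6 libraries held 13935865 to 24097927 counts, so that 3 counts were worth 0.124 to 0.215 CPM, a limit that covers counting error only. All 9 OPC markers found (of 10 listed) were detected, with a summed level of 4107 to 4735 CPM in the DMSO libraries and 4554 to 6255 CPM in the ZJU-37 libraries. Other cells were also represented. The 8 mature oligodendrocyte markers summed to 11087 to 22050 CPM with DMSO and to 4666 to 9761 CPM with ZJU-37, the 12 neuron markers to 563 to 904 and 517 to 823 CPM, the 7 astrocyte markers to 930 to 1544 and 860 to 1299 CPM, and the 7 microglia markers to 1654 to 2845 and 1201 to 2453 CPM. The 5 Schwann cell markers summed to 407 to 506 and 369 to 429 CPM, and the 6 endothelial and mesenchymal markers to 73.9 to 120 and 42.2 to 96.8 CPM, with Cldn5 at 0 in every library. In such bulk samples fewer cells of a type and less RNA per cell cannot be told apart.

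The windows around the annotated transcription starts of 3 genes that changed most are shown because they are the regulatory sequence nearest to the results below. The windows come from RefSeq (GRCr8 build, 250 bases before to 50 bases after a start), which is not known to be the build of the deposited table. Nfasc has a pair of annotated starts. Capitals mark matches, on either strand, to GGGCGG (the SP1 core), GGGNNTTCC (a core of NF-κB sites), TATAAA or ACAAAG (a SOX core).
Cntn1 (chr7:125252060-125252359, plus strand): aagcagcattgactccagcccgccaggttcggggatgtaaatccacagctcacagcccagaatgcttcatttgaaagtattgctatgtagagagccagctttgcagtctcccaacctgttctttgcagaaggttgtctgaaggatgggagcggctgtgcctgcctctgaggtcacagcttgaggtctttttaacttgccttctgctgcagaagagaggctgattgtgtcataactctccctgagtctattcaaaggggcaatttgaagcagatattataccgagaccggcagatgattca
Nfasc, upstream start (chr13:46701115-46701414, minus strand): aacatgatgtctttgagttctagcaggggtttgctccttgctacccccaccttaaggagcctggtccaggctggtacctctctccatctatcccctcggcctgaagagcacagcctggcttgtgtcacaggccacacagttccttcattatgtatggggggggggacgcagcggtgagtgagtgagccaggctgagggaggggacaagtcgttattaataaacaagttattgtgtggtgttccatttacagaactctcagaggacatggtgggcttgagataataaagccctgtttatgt
Nfasc, downstream start (chr13:46627799-46628098, minus strand): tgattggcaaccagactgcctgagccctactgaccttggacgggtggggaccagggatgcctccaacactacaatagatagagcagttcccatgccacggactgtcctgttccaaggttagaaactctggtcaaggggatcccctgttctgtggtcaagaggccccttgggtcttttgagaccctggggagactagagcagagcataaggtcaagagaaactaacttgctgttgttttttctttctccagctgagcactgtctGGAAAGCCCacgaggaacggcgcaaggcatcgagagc
Cadm2 (chr11:18971837-18972136, minus strand): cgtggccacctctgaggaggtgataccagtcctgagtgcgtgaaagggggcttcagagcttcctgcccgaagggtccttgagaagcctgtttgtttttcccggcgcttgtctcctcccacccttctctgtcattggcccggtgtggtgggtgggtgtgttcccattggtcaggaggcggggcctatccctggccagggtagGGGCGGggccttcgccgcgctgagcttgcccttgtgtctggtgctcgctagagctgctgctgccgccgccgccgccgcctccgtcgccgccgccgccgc
The Cntn1 window and the upstream Nfasc window held none of the 4 motifs, the downstream Nfasc window held 1 match to the NF-κB core and the Cadm2 window 1 match to the SP1 core. Windows were found by symbol for 25 of the 34 genes (26 windows). Their GC content ran from 30.7% to 76.0%, with a median of 52.8% against 51.7% over all 33469 windows of this length. The NF-κB core was in 2 of the 26 windows (7.69%, against 5.92% of all windows), the other one being that of Lrrtm2. The SP1 core was in 7 windows (26.9%, against 33.1%), the E-box CANNTG in 15 (57.7%, against 72.1%), TATAAA in 1 (3.85%, against 14.2%) and ACAAAG in 4 (15.4%, against 18.8%). Such matches describe letters and not binding.

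Within most families 1 gene carried most of the expression. Levels between genes are compared as RPKM (CPM per kilobase of gene length). In the DMSO libraries the highest mean level was that of Cadm4, at 275 ± 40.1 RPKM (SD, n = 3 libraries, as for all means here). Nfasc followed at 239 ± 71.5 RPKM, within the spread of Cadm4, and then Ncam1 at 91.5 ± 8.59, Nlgn2 at 74.4 ± 7.72, Nrxn2 at 67.1 ± 6.36, Cntn1 at 66.0 ± 10.1 and Nlgn3 at 59.7 ± 3.43 RPKM. In the ZJU-37 libraries Cadm4 was again first, at 196 ± 18.0 RPKM, and Cntn1 was second at 159 ± 29.1 RPKM. There, Nlgn3, Nrxn2, Nfasc and Nlgn2 lay together between 66.9 and 73.1 RPKM, with overlapping ranges. Cntn1 made up 93.4% to 95.1% of the summed contactin RPKM in DMSO libraries and 97.2% to 97.3% in ZJU-37 libraries. The other contactins, Cntn2 to Cntn6, stayed below 2 RPKM. Nrxn2 held 82.8% to 88.4% of neurexin RPKM over the 6 libraries. The L1 family changed in makeup, since Nfasc held 80.9% to 88.7% of its RPKM in the DMSO libraries and 47.1% to 60.6% in the ZJU-37 libraries. At the low end, Cntnap5c had 5 to 22 counts per library and Cntnap5b had 2 counts in ZJU-37 replicate 2 and 0 in every other library.

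**Figure D1:**
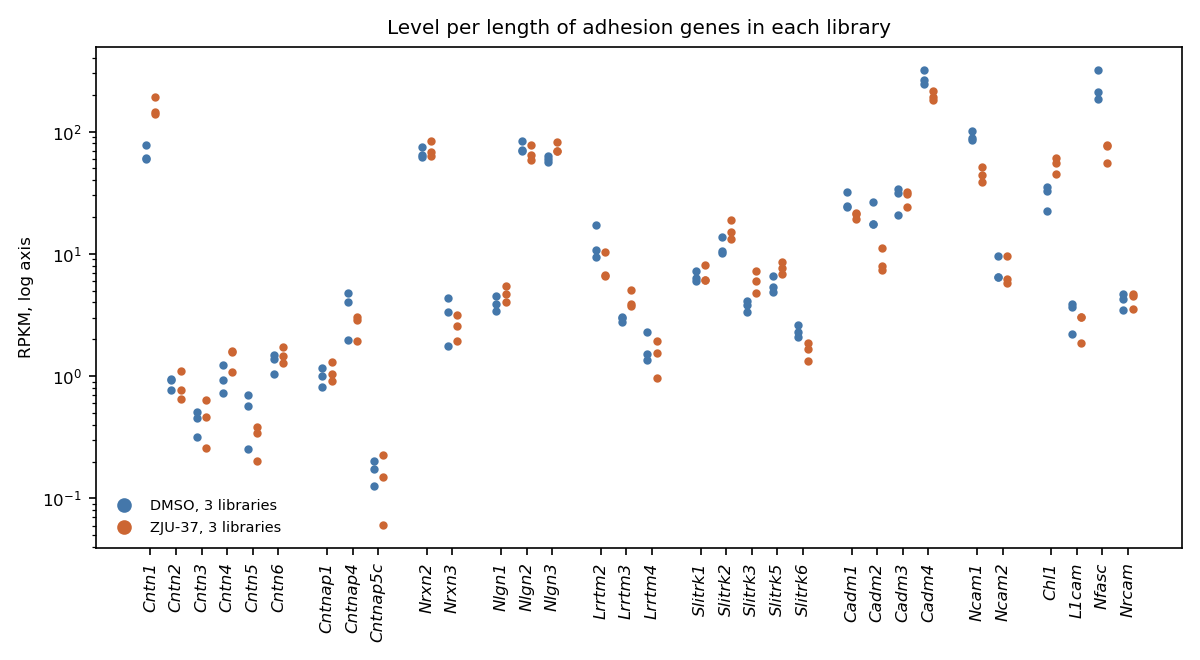
Level of each gene in RPKM (log axis) in the 3 DMSO libraries (blue) and the 3 ZJU-37 libraries (orange), in family order. Cadm4, Nfasc, Cntn1, Ncam1, Nrxn2, Nlgn2 and Nlgn3 stand highest, and Cntnap5b, with counts in 1 library only, and 1 other gene are not plotted.

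Nfasc was the single largest contributor. It ranked 21 of all genes by mean CPM with DMSO and 102 with ZJU-37. It supplied 42.1% to 51.1% of all counts of the 34 genes in DMSO libraries and 17.0% to 23.3% in ZJU-37 libraries. With Nfasc, the 34 genes took 0.464% to 0.646% of a DMSO library and 0.341% to 0.446% of a ZJU-37 library. Without it they took 0.256% to 0.316% and 0.262% to 0.362%, ranges that overlap.

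Between ZJU-37 and DMSO, 8 of the 33 tested adhesion genes passed an adjusted p-value of 0.05 in the quasi-likelihood test of edgeR (24.2%, against 15.0% of all tested genes). Of these, 4 were higher with ZJU-37 (12.1%, against 9.43% of all tested genes), namely Cntn1, Chl1, Slitrk3 and Lrrtm3, and 4 were lower (12.1%, against 5.58%), namely Nfasc, Cadm2, Ncam1 and Cadm4. A log2 fold change of at least 1 in size was reached by 4 genes (12.1%, against 4.24%), which were Nfasc, Cadm2, Ncam1 and Cntn1. The log2 fold changes of the 33 genes had a median of 0.01 (-0.03 over all tested genes) and their sizes a median of 0.31 (0.19 over all tested genes). The 3 libraries of a group lay entirely above or below those of the other in 12 genes (36.4%), a share near the 35.2% of all tested genes. When the replicate number entered as a block, 19 genes passed (57.6%, against 32.1% of all tested genes), 9 higher and 10 lower, and all 8 were among them. Nfasc, Cntn1 and Ncam1 kept an adjusted p-value under 0.05 in each of the 11 alternatives, whereas the other 5 lost it in 1 or more. The count was 5 (15.2%) without DMSO replicate 1 (against 10.8% of all tested genes), without DMSO replicate 2 (8.74%) or without ZJU-37 replicate 2 (11.8%). It was 4 (12.1%, against 9.08%) without ZJU-37 replicate 3. The 5 without DMSO replicate 1 included Slitrk5, which was not among the 8.

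**Figure D2:**
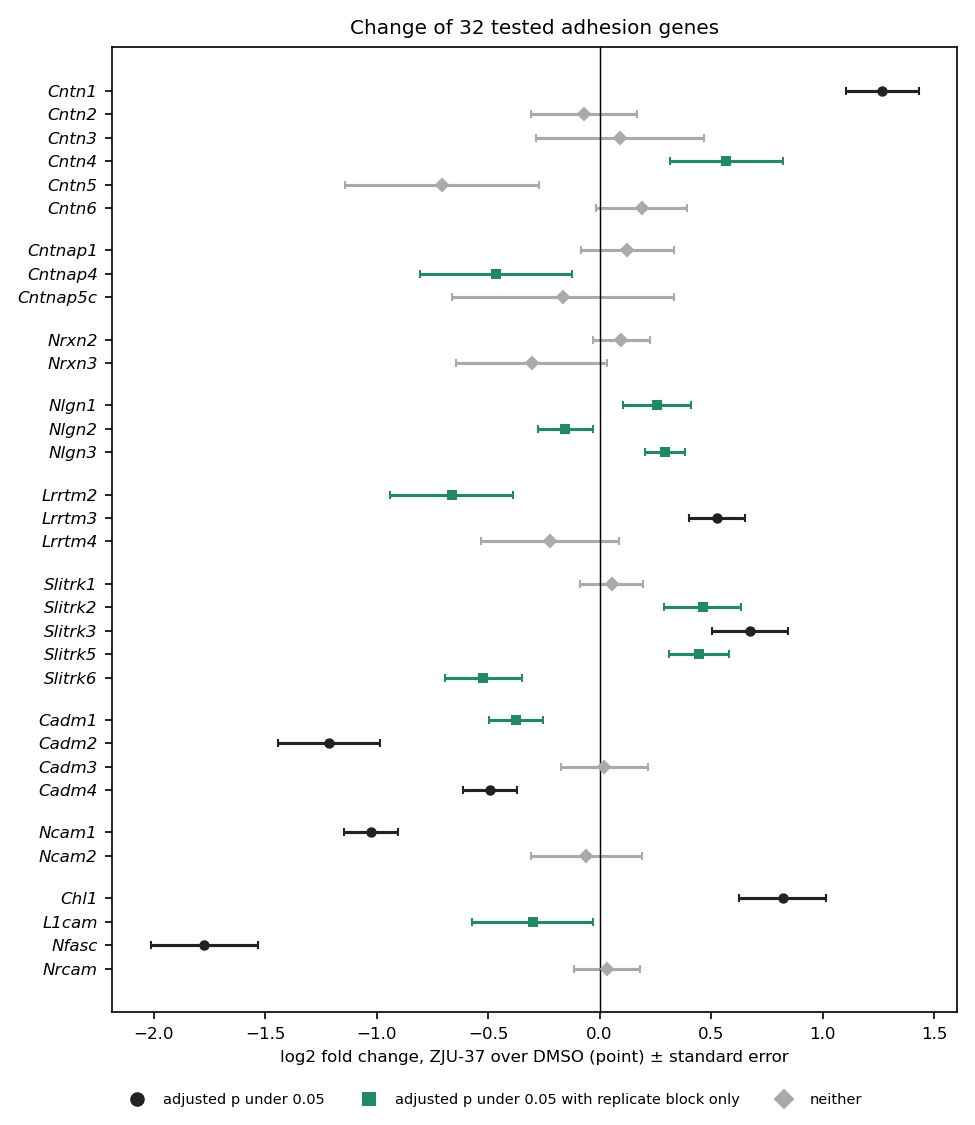
Log2 fold change of ZJU-37 over DMSO with its standard error for 32 of the 33 tested genes, by family. Black circles passed an adjusted p-value of 0.05, green squares passed it with the replicate block only, and grey diamonds passed neither. Cntn1 (1.27) lies farthest to the right and Nfasc (-1.77) farthest to the left.

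Among the contactins, Cntn1 rose 2.41-fold. Contactin 1 is an immunoglobulin protein held to the membrane by a lipid anchor, and it binds neurofascin, tenascin R and the receptor phosphatase Ptprz1. Its gene lies on chromosome 7 from 133400485 to 133586677 (plus strand, in the coordinates of the deposited table, whose build is not given in the sources used here, as for all table positions below). Its level was 305, 239 and 233 CPM in replicates 1, 2 and 3 of the DMSO group and 756, 548 and 569 CPM in those of the ZJU-37 group. All ZJU-37 libraries lay above all DMSO libraries, and the library of replicate 1 was the highest in both groups. The means were 259 ± 39.8 and 624 ± 114 CPM, a log2 fold change of 1.27 ± 0.16 (SE, adjusted p = 0.00326 in edgeR). The log2 differences within the pairs of replicates 1, 2 and 3 were 1.31, 1.20 and 1.29. No other contactin passed this test. Cntn4, a contactin of developing axons, had 4.60, 6.10 and 3.61 CPM with DMSO and 7.89, 7.95 and 5.41 CPM with ZJU-37, groups that overlap. Its log2 fold change was 0.57 ± 0.25 (SE) with an adjusted p of 0.198, and 0.0197 with the replicate block. Cntn2, Cntn3, Cntn5 and Cntn6 had log2 fold changes between -0.71 and 0.19, with adjusted p-values of at least 0.353 in edgeR. The lowest of these, that of Cntn5, had a standard error of 0.44 on 14 to 44 counts per library.

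The contactin-associated proteins are large neurexin-like partners of contactins, and none passed the test. Cntnap4 was the most abundant, with 18.0, 7.40 and 15.0 CPM in replicates 1, 2 and 3 of the DMSO group and 11.2, 7.27 and 10.7 CPM in those of the ZJU-37 group. The libraries of replicate 2 were the lowest in both groups and the groups overlapped. The log2 fold change of Cntnap4 was -0.46 ± 0.34 (SE, adjusted p = 0.444, and 0.0443 with the replicate block, in edgeR). Cntnap1, the axonal partner of contactin 1 at the paranode, stood at 5.33 ± 0.902 and 5.80 ± 1.08 CPM with a log2 fold change of 0.12 ± 0.21 (SE). Cntnap5c had one of -0.16 (standard error 0.50).

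No difference was detected in Nrxn2 and Nrxn3, genes of the neurexins, the presynaptic hubs of this system. Nrxn2 had 566, 494 and 474 CPM with DMSO and 643, 485 and 515 CPM with ZJU-37, and the groups overlapped. That gave a log2 fold change of 0.10 ± 0.13 (SE, adjusted p = 0.671 in edgeR). Nrxn3 was less certain, with a log2 fold change of -0.31 and a standard error of 0.34. Both also stayed above an adjusted p of 0.05 with the replicate block.

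The neuroligins, the postsynaptic receptors of neurexins, shifted by small amounts that passed only with the block. Nlgn2, which in neurons is placed at inhibitory synapses, had 363, 306 and 303 CPM with DMSO and 337, 254 and 282 CPM with ZJU-37. The ranges overlapped, and each ZJU-37 library was below the DMSO library of its number. The log2 fold change was -0.15 ± 0.12 (SE, adjusted p = 0.485, and 0.0494 with the block, in edgeR). Nlgn3, a neuroligin that glia also express, had 251, 237 and 224 CPM with DMSO and 324, 274 and 274 CPM with ZJU-37, without overlap. Its log2 fold change of 0.29 ± 0.09 (SE) had an adjusted p of 0.0768, and 0.00241 with the block. Nlgn1 had a log2 fold change of 0.26 ± 0.15 (SE, adjusted p = 0.326, and 0.0377 with the block). By RPKM, Nlgn2 was the leading neuroligin in each DMSO library (52.7% to 55.2% of the family) and Nlgn3 in each ZJU-37 library (49.6% to 52.5%).

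The Lrrtm proteins are postsynaptic leucine-rich repeat ligands of neurexins, and their genes did not move together. Lrrtm3, on chromosome 20 from 25990304 to 26163656 (plus strand), rose from 23.2, 21.2 and 22.8 CPM with DMSO to 38.5, 30.0 and 28.5 CPM with ZJU-37. The groups did not overlap, and the means of 22.4 ± 1.04 and 32.3 ± 5.39 CPM gave a log2 fold change of 0.53 ± 0.13 (SE, adjusted p = 0.0362 in edgeR). This call was lost without DMSO replicate 1, 2 or 3 (adjusted p of 0.0829, 0.124 and 0.0977) and without ZJU-37 replicate 2 (0.0525). Lrrtm2 was the most abundant of the 3, with 80.8, 44.5 and 50.9 CPM with DMSO and 48.6, 31.2 and 31.4 CPM with ZJU-37. The overlap rests on ZJU-37 replicate 1, which lay above DMSO replicate 2. For Lrrtm2 the log2 fold change was -0.66 ± 0.28 (SE) with an adjusted p of 0.174, and 6.72e-05 with the block, since the pairs gave -0.73, -0.51 and -0.70. Lrrtm2 lies inside the span of Ctnna1, on the other strand, whose 28630 counts compare with 5154 for Lrrtm2, and the strand setting of the counting is not given, so its counts are uncertain. Lrrtm4 had a log2 fold change of -0.22 ± 0.31 (SE, adjusted p = 0.698).

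The Slitrk genes encode synaptic ligands of receptor tyrosine phosphatases. Slitrk3, on chromosome 2 from 170452702 to 170460754 (minus strand), rose from 12.6, 11.1 and 13.7 CPM with DMSO to 23.9, 15.9 and 19.9 CPM with ZJU-37. The groups did not overlap, and the means were 12.4 ± 1.32 and 19.9 ± 4.02 CPM, a log2 fold change of 0.68 ± 0.17 (SE, adjusted p = 0.0420 in edgeR). The call was lost without DMSO replicate 1, 2 or 3 (adjusted p of 0.108, 0.136 and 0.0781) and without ZJU-37 replicate 1 or 3 (0.0752 and 0.115). Slitrk2, the most abundant, had 40.5, 31.0 and 29.8 CPM with DMSO and 56.0, 39.0 and 44.3 CPM with ZJU-37. Only ZJU-37 replicate 2 fell inside the DMSO range. For Slitrk2 the log2 fold change was 0.46 ± 0.17 (SE, adjusted p = 0.133, and 7.99e-04 with the block). Slitrk5 had a log2 fold change of 0.44 ± 0.14 (SE, adjusted p = 0.0762, and 0.00183 with the block). Its adjusted p was 0.0432 in DESeq2 and 0.0375 in edgeR without DMSO replicate 1. Slitrk6 went the other way. It had 11.2, 8.87 and 9.82 CPM with DMSO and 5.68, 7.08 and 7.98 CPM with ZJU-37, without overlap, a log2 fold change of -0.52 ± 0.17 (SE, adjusted p = 0.0949, and 0.0317 with the block). Slitrk1 had a log2 fold change of 0.05 ± 0.14 (SE), and its span overlaps that of Mycbp2, so its counts are uncertain. Slitrk1, Slitrk6 and Slitrk5 follow each other on chromosome 15, with gaps of 2200 and 1308 kb.

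Among the Cadm genes, which encode nectin-like adhesion molecules, Cadm2 and Cadm4 fell. Cadm2, on chromosome 11 from 4174881 to 4397361 (minus strand), had 51.6, 34.1 and 34.1 CPM with DMSO and 21.8, 15.5 and 14.3 CPM with ZJU-37. The groups did not overlap, and in both the library of replicate 1 was the highest. The means were 39.9 ± 10.1 and 17.2 ± 4.04 CPM, a log2 fold change of -1.21 ± 0.23 (SE, adjusted p = 0.0161 in edgeR) or a 2.32-fold lower level. The adjusted p was 0.0605 without ZJU-37 replicate 2 and also 0.0605 without ZJU-37 replicate 3. Cadm4, a Cadm protein that myelinating glia carry, lies on chromosome 1 from 81365138 to 81370109 (plus strand). It had 460, 377 and 349 CPM with DMSO and 310, 273 and 260 CPM with ZJU-37, again without overlap. The difference was a log2 fold change of -0.49 ± 0.12 (SE, adjusted p = 0.0393). This call was lost without DMSO replicate 1 or 2 (adjusted p of 0.0721 and 0.0878) and without ZJU-37 replicate 2 or 3 (0.111 and 0.141). Cadm1 had 69.0, 53.4 and 52.1 CPM with DMSO and 46.8, 46.2 and 41.7 CPM with ZJU-37, groups that do not overlap. Its log2 fold change was -0.37 ± 0.12 (SE, adjusted p = 0.0896, and 0.00499 with the block). Cadm3, with 70.6 ± 16.8 and 71.6 ± 10.2 CPM, had a log2 fold change of 0.02 ± 0.20 (SE).

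Ncam1, which encodes the neural cell adhesion molecule, fell 2.04-fold. It lies on chromosome 8 from 53839098 to 53901358 (minus strand). Its level was 448, 391 and 376 CPM in replicates 1, 2 and 3 of the DMSO group and 228, 172 and 196 CPM in those of the ZJU-37 group. Every ZJU-37 library lay far below every DMSO library. The means were 405 ± 38.0 and 199 ± 27.9 CPM, a log2 fold change of -1.03 ± 0.12 (SE, adjusted p = 0.00213 in edgeR). Its relative Ncam2 stood at 37.6 ± 9.29 and 36.1 ± 10.7 CPM, a log2 fold change of -0.06 ± 0.25 (SE, adjusted p = 0.908). Cadm1 and Ncam1 lie on the same chromosome with a gap of 1649 kb and 21 counted genes between them.

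In the L1 family, whose members bind ankyrins inside the cell, Nfasc and Chl1 went in opposite directions. Nfasc, on chromosome 13 from 49335408 to 49522415 (minus strand), had 3359, 2220 and 1945 CPM in replicates 1, 2 and 3 of the DMSO group and 812, 806 and 583 CPM in those of the ZJU-37 group. The lowest DMSO library was above the highest ZJU-37 library, and the DMSO libraries were spread more widely. The means were 2508 ± 749 and 734 ± 130 CPM, a log2 fold change of -1.77 ± 0.24 (SE, adjusted p = 0.00447 in edgeR), or a 3.42-fold lower level, and the pairs gave -2.05, -1.46 and -1.74. Counts per gene do not separate the glial from the neuronal isoform of neurofascin. Cntn2, its neighbour on chromosome 13 at a distance of 21.5 kb with no counted gene between, had 4.44 ± 0.470 and 4.24 ± 1.19 CPM and a log2 fold change of -0.07 ± 0.24 (SE).

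Of the 8 mature oligodendrocyte markers, 2 (Cnp and Myrf) were lower at an adjusted p under 0.05 (25.0%, against 15.0% of all tested genes called and 5.58% called lower). With the block 5 of the 8 were lower, where 2334 of the 14670 tested genes were lower. Mbp, Mog and Opalin passed neither test, with log2 fold changes of -1.03, 0.07 and -0.54, and none of the 8 was at 0 in any library. The summed levels of the 8 did not overlap between the groups, and they were highest in DMSO replicate 1 and lowest in ZJU-37 replicate 3, as Nfasc was. Their part in the lower Nfasc, Cadm4, Cadm2 and Ncam1 levels was not tested.

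Chl1, an L1 relative of glia and neurons, rose 1.77-fold. It lies on chromosome 4 from 70252366 to 70330803 (plus strand). It had 119, 81.0 and 129 CPM with DMSO and 219, 162 and 200 CPM with ZJU-37. The groups did not overlap, and replicate 2 was the lowest in both. The means were 110 ± 25.3 and 194 ± 29.1 CPM, a log2 fold change of 0.82 ± 0.19 (SE, adjusted p = 0.0369 in edgeR). The adjusted p was 0.0811 without DMSO replicate 1, 0.0804 without ZJU-37 replicate 1, 0.101 without ZJU-37 replicate 3 and 0.0635 without the filter on low counts. L1cam had 22.7, 13.0 and 21.6 CPM with DMSO and 17.7, 11.0 and 17.7 CPM with ZJU-37, a log2 fold change of -0.30 ± 0.27 (SE, adjusted p = 0.541, and 0.0362 with the block). Nrcam had a log2 fold change of 0.03 ± 0.15 (SE), and its span overlaps a pseudogene with 438 counts. Of the OPC markers, 5 were higher and 3 lower with ZJU-37 at an adjusted p under 0.05 (against 9.43% and 5.58% of all tested genes), and none was at 0. Their part in the higher Cntn1 and Chl1 levels was not tested.

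**Figure D3:**
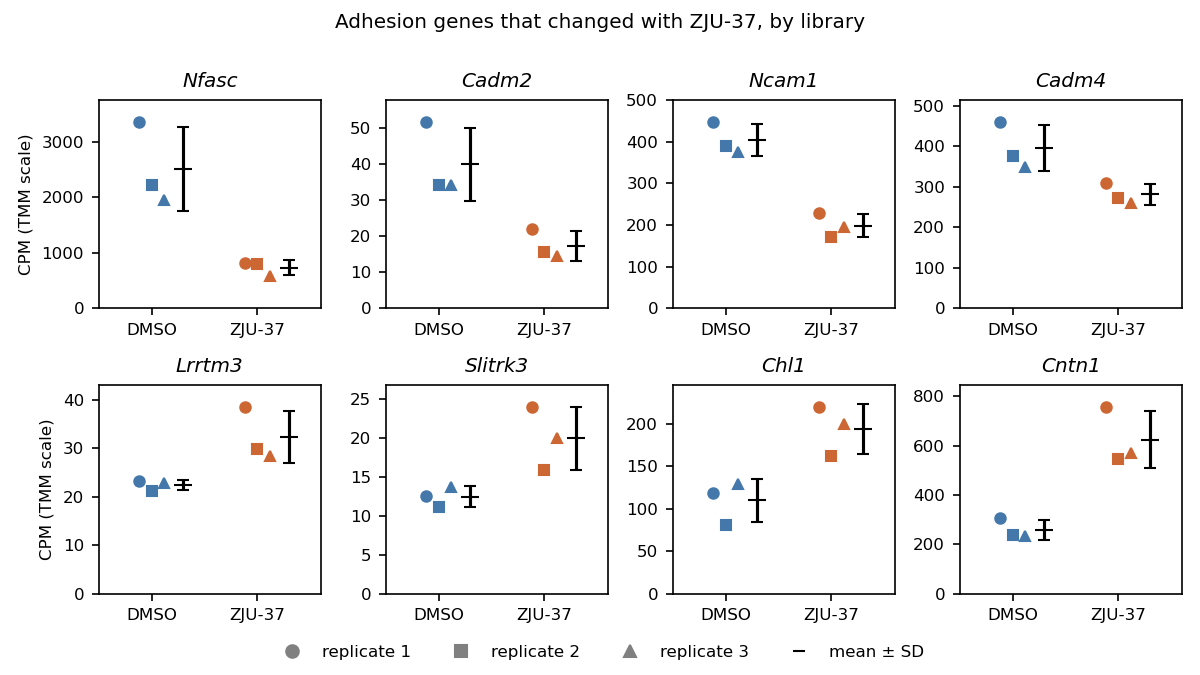
TMM-scaled CPM of the 8 genes past an adjusted p-value of 0.05, 1 panel per gene with its axis from 0. Symbols are libraries (circle, square and triangle for replicates 1, 2 and 3), and black bars are the mean ± SD of 3 libraries. In each panel the 3 ZJU-37 libraries lie wholly below (Nfasc, Cadm2, Ncam1, Cadm4) or wholly above (Lrrtm3, Slitrk3, Chl1, Cntn1) the 3 DMSO libraries.

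The 34 genes also differ from the rest of the table in size. The annotated spans of the 33 tested genes had a median of 116 kb, against 20.2 kb for all tested genes, and ran from 3.44 kb for Slitrk2 to 1934 kb for Nrxn3. Among the 8 genes past the threshold they ran from 4.97 kb (Cadm4) to 222 kb (Cadm2), and none of these 8 spans overlaps that of another gene in the table.

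Ligands, scaffolds and enzymes known to work with these proteins were examined as 6 lists of 136 genes in all, of which 134 were found and 130 were tested. Of these, 28 passed an adjusted p of 0.05 (21.5%, against 15.0% of all tested genes), 8 higher and 20 lower with ZJU-37 (9.43% of all tested genes were higher and 5.58% lower). Over the 130 genes the log2 fold changes had a median of -0.03, as over all tested genes. With the replicate block 68 passed (52.3%, against 32.1% of all tested genes), 28 higher and 40 lower. Without DMSO replicate 2 it was 17 (13.0%, against 8.74%), 5 higher and 12 lower. Without ZJU-37 replicate 3 it was 13 (9.92%, against 9.08%), 6 higher and 7 lower. Without ZJU-37 replicate 2 the split was 10 higher and 13 lower.

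Of 14 ligands and receptors of contactins, 1 was higher and 4 were lower (35.7% called, against 15.0% of all tested genes, median log2 fold change -0.30). Tnr, which encodes the matrix protein tenascin R, a ligand of contactin 1, had 712, 599 and 522 CPM with DMSO and 60.2, 50.0 and 53.7 CPM with ZJU-37. The groups lay wide apart, with a log2 fold change of -3.48 ± 0.14 (SE, adjusted p = 1.32e-04 in edgeR), the largest in size of the 130 partners. The lecticans Vcan and Bcan, chondroitin sulfate proteoglycans of brain matrix, had log2 fold changes of -1.29 and -0.72. Ptprz1, whose product is a receptor phosphatase that binds contactin 1 and an OPC marker, rose with a log2 fold change of 0.54 (adjusted p = 0.0243), from 1316, 1101 and 1186 CPM to 1962, 1531 and 1733 CPM.

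Of 17 ankyrin, spectrin and band 4.1 linkers, none was higher and 2 were lower (11.8% called, below the 15.0% of all tested genes, median 0.10). Ank3, which encodes ankyrin G, the anchor of neurofascin at the node, fell from 152, 99.3 and 90.9 CPM to 56.7, 54.9 and 43.8 CPM, a log2 fold change of -1.14 (adjusted p = 0.0156 in edgeR). Epb41l2, which encodes a protein that ties membrane proteins to actin and spectrin, fell by 1.54 on the log2 scale (adjusted p = 3.20e-04). The most abundant of them over the 6 libraries, Msn, which encodes moesin, a linker of membrane proteins to actin, did not pass (log2 fold change 0.32, adjusted p = 0.243, and 0.00173 with the block).

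Of 31 extracellular ligands of neurexins and other synaptic organizers, 3 were higher and 3 lower. That made 19.4% called, against 15.0% of all tested genes, with a median of 0.10. Nxph1, which encodes neurexophilin 1, a secreted ligand of neurexins, rose from 28.4, 24.5 and 24.2 CPM to 56.7, 49.2 and 45.1 CPM, a log2 fold change of 0.97 (adjusted p = 0.00193). Cbln1, which encodes a cerebellin, rose from 1.53, 1.53 and 2.07 CPM to 4.81, 3.78 and 3.60 CPM (log2 fold change 1.24, adjusted p = 0.0135). Elfn2 and Flrt1, leucine-rich repeat proteins of the synapse, fell by 1.79 and 1.36 on the log2 scale. The most abundant, Ptprs, which encodes a receptor tyrosine phosphatase, did not pass (log2 fold change 0.33, adjusted p = 0.0525, and 0.00195 with the block).

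Of 29 scaffolds, most of them PDZ proteins that hold neurexins and neuroligins, 3 were higher and 6 lower. That made 31.0% called, against 15.0% of all tested genes, with a median of 0.12. Among the genes that passed, the largest log2 fold changes were those of Magi1 (0.85, adjusted p = 8.20e-04), Homer1 (-0.68, 0.0132), Dlgap4 (-0.66, 0.00689) and Mpp6 (0.64, 0.00934). The most abundant, Dlg4, which encodes the postsynaptic scaffold of excitatory synapses, had one of 0.12 (adjusted p = 0.453). Of 27 other immunoglobulin adhesion genes, 1 was higher and 4 were lower (18.5% called, against 15.0% of all tested genes, median -0.11). Those lower were Lsamp and Opcml, of the IgLON family, Kirrel3 and Igsf9b, with log2 fold changes of -0.99, -0.69, -0.95 and -0.92, and Jam3 was the higher one (0.32). Igsf9b had an adjusted p of 0.0443, and 0.0859 with the replicate block. The most abundant, Bsg, which encodes basigin, had one of -0.15 (0.187, and 0.0459 with the block). Of 12 polysialylation enzymes and sheddases, 1 was lower (8.33% called, below the share of all tested genes, median -0.16). This was Bace1, the beta-secretase that cleaves Chl1 among other proteins, with a log2 fold change of -0.64 (adjusted p = 0.0145). The most abundant, B3gat1, which encodes the enzyme that makes the sugar epitope carried by many of these adhesion proteins, had one of -0.13 (adjusted p = 0.627).

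**Figure D4:**
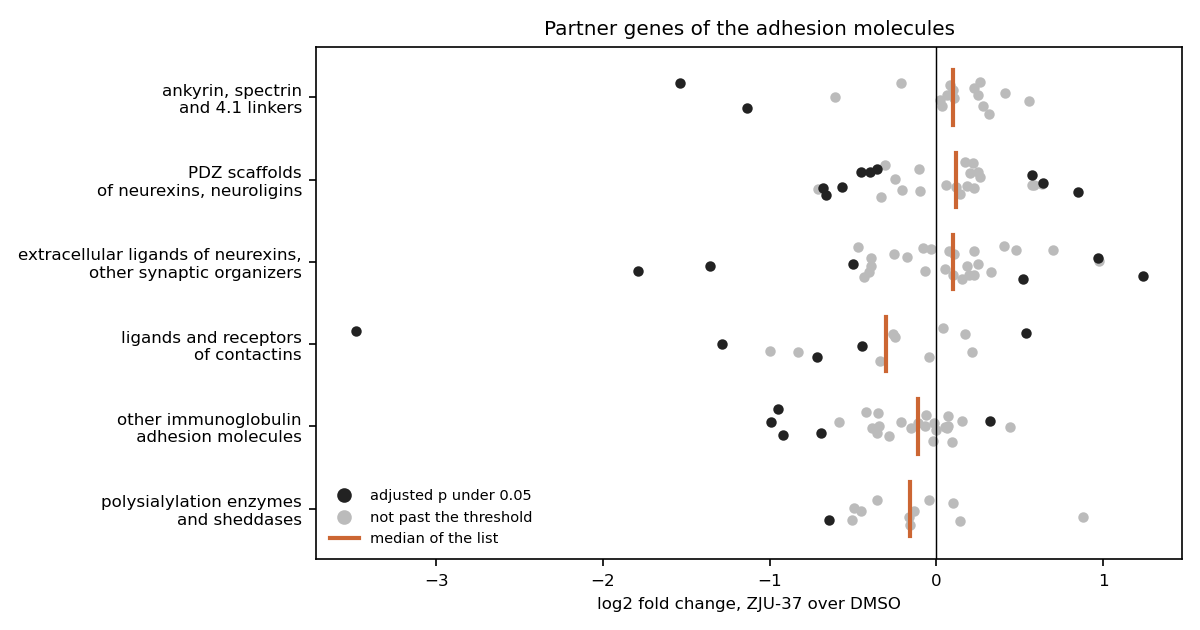
Log2 fold change of ZJU-37 over DMSO for the 130 tested partner genes in 6 lists. Black points passed an adjusted p-value of 0.05, grey points did not, and orange bars are list medians, from -0.30 (ligands and receptors of contactins) to 0.12 (scaffolds). Tnr lies farthest to the left, at -3.48.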

How the data were processed

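RNA of 6 OPC cultures (3 with DMSO, 3 with ZJU-37) was sequenced as poly-A libraries. The submitters' processing notes name HISAT2 2.0.5, StringTie 1.3.3b and featureCounts 1.5.0, and the genome build is not given in the sources used here. The authors deposited raw counts per gene, neither normalized nor filtered, with FPKM values of their own, which were not used, and columns of their own DESeq2 comparison, which were not used either.

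From the deposited counts, low genes were removed by filterByExpr and TMM factors were computed. Groups were compared with the quasi-likelihood test of edgeR 4.0.16 (robust glmQLFit) under R 4.3.3, using every library, and p-values were adjusted by Benjamini-Hochberg over 14670 genes. A standard error is the size of a log2 fold change divided by the square root of F. RPKM is TMM-scaled CPM divided by the gene length of the deposited table. The test was run on simulated counts with known changes. Replicate numbers come from the labels. Libraries with the same number in both groups deviated together from their means across genes (r = 0.39, 0.31 and 0.33, against -0.27 to -0.01 for other pairs), so the fit with the replicate block is given where it changes a call. Libraries of a group differed by a chi-square of 11.9 or more per degree of freedom, and none was treated as a duplicate.

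The values of 1 of the 33 tested genes are not reported here on their own, though the counts and medians include it. The genes, the lists of partners and markers, written from general knowledge, and the tests were chosen with earlier results of these data known. Values per library are given for genes with an adjusted p under 0.05, for the most abundant of each family, and for genes whose call changed with the block and whose log2 fold change was 0.5 or more in size. Such values for Nlgn3, Cadm1 and L1cam were added after they were seen. At most 4 partners of a list past the threshold are named, besides its most abundant gene by mean CPM and Jam3, which was added after its value was seen. Alternatives were relative log expression normalization, DESeq2 1.42.0, the replicate block, no filter on low counts, a minimum of 10 counts per library, and leaving out each library in turn.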

Additional observations from a re-analysis of the deposited data

How the results depend on the processing

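Of the 33 tested genes, 8 passed the adjusted threshold in edgeR (24.2%, against 15.0% of all tested genes). Relative log expression normalization gave 8 (24.2%, against 14.7% of all genes tested there). At least 10 counts in every library gave 8 (25.0%, against 16.0%), and in both settings these were the same genes. DESeq2 gave 9 (27.3%, against 17.5%), no filter on low counts gave 7 (20.6%, against 9.81%), and the replicate block gave 19 (57.6%, against 32.1%). Leaving out 1 library gave 4 to 6 of the 33 genes (12.1% to 18.2%) and 13 to 28 partner genes (9.92% to 21.4%). Of all tested genes it gave 1306 to 1927 (8.74% to 12.9%), the lowest without DMSO replicate 2 (1306) and without ZJU-37 replicate 3 (1351). With the replicate block the 28 partner genes became 68 and the 2201 genes of all tested became 4705, of which 50.4% were higher against 62.8% without it. Besides the calls printed with the results, the block changed the call of no other gene of the 33.

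Signs turned only where 1 library was left out and only for genes not past the threshold. The log2 fold changes then spanned -0.16 to 0.16 for Cadm3, -0.29 to 0.11 for Cntn2, -0.21 to 0.40 for Cntn3, -0.0068 to 0.27 for Cntnap1, -0.64 to 0.22 for Cntnap5c, -0.44 to 0.041 for Lrrtm4, -0.30 to 0.16 for Ncam2, -0.081 to 0.18 for Nrcam, -0.014 to 0.21 for Nrxn2 and -0.079 to 0.15 for Slitrk1. Depth limits the statements on Cntnap5b, Cntnap5c, Cntn3 and Cntn5, which had at most 49 counts in a library.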

Other observations

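The adhesion genes varied together between the libraries of a group, an order that was looked at after the values were seen. In 24 of the 33 tested genes (72.7%, against 25.5% of all tested genes) the library of replicate 1 was the highest in both groups. In 16 genes (48.5%, against 17.5%) the library of replicate 2 was the lowest in both. The summed neuron markers had the same order, with 904, 563 and 743 CPM in replicates 1, 2 and 3 of the DMSO group and 823, 517 and 692 CPM with ZJU-37, and none of the 12 was at 0. None of the 12 passed the test between groups in edgeR, and 4 were lower with the replicate block, where 2334 of the 14670 tested genes were lower. The 7 microglia markers had the reverse order, with 1654, 2845 and 2141 CPM with DMSO and 1201, 2453 and 1758 CPM with ZJU-37. The OPC markers (4735, 4176 and 4107 CPM, then 6255, 4554 and 5044 CPM) and the Schwann cell markers (506, 433 and 407 CPM, then 429, 369 and 388 CPM) were also highest in replicate 1 of both groups. The astrocyte markers were lowest in replicate 2 of both (1325, 930 and 1544 CPM, then 1055, 860 and 1299 CPM). The part of any of these cells in the order of the adhesion genes was not tested.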
